A study of Mus musculus with 16 samples.

Results

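This account covers Fgf21, the fasting hormone of the liver, together with parts of its receptor and the regulators that act with PPAR alpha on its transcription. The 8 listed genes were Fgf21, Klb, Fgfr4, Ppara, Creb3l3, Rxra, Ncor1 and Sirt1. A gene was kept when the array table held a probe set with exactly 1 gene symbol, which left 7 of the 8, out of 18820 genes in all. Ncor1 had no such probe set and is not analysed here. The samples were 16 liver arrays from male mice aged 14 to 16 weeks on standard chow, in 4 groups of 4 arrays. The groups were vanin-1 knockout mice fasted for 24 h (fasted KO), wild type C57Bl/6J mice fasted for 24 h (fasted WT), fed knockout mice (fed KO) and fed wild type mice (fed WT). The labels give C57Bl/6J as the strain background of both genotypes, and do not give the knockout allele or whether the wild type mice were littermates. Nor do they state that the arrays of a group are separate animals, and the p-values cover only the spread among these arrays, which may be technical.

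FGF21 is a hormone that the liver secretes on fasting. PPAR alpha, a nuclear receptor that binds fatty acids, pairs with RXR alpha on the DNA of its target genes, and Fgf21 is one of them in mouse liver. CREB-H, the product of Creb3l3, is a membrane-held transcription factor that is released by cleavage and acts with PPAR alpha on Fgf21. NCoR1 is a corepressor of nuclear receptors, and SIRT1 is an NAD-dependent deacetylase that acts on PPAR alpha signalling. FGF21 signals through an FGF receptor together with the co-receptor beta-klotho, the product of Klb. FGFR4, the main FGF receptor of hepatocytes, pairs with beta-klotho in the response to the bile acid hormone FGF15. Vanin-1, made from Vnn1, is a pantetheinase and itself a PPAR alpha target.

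The start site windows of Fgf21 and Creb3l3 are shown because, within each genotype, these members were higher in every fasted than in every fed array. Each is 300 bases from RefSeq (GRCm38.p6), with 250 bases before and 50 after the start of the gene. The Fgf21 window is chr7:45615441-45615740 and the Creb3l3 window, the first of 2 listed for that gene, is chr10:81092542-81092841, both on the minus strand. Capitals mark matches to any of the motifs searched.
Fgf21: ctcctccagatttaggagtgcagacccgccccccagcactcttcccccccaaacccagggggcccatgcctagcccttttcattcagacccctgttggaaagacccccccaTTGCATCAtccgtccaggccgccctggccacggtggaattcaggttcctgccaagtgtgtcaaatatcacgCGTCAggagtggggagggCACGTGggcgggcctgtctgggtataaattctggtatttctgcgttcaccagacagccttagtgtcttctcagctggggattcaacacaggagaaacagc
Creb3l3: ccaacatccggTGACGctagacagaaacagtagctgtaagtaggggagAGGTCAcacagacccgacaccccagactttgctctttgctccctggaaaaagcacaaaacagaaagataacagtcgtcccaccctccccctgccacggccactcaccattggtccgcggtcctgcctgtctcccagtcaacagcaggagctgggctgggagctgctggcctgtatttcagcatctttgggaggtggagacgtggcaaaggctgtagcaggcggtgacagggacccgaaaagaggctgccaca
The motifs, searched on both strands, were the direct repeat that PPAR alpha and RXR bind (2 AGGTCA elements with 1 base between them), a single AGGTCA, the cyclic AMP elements TGACGTCA and TGACG, the E-box CACGTG and the ATF4 type element TGATGCAA. The Fgf21 window held TTGCATCA, the reverse complement of TGATGCAA, at -139 from the start site. It also held CGTCA, the reverse complement of TGACG, at -68 and CACGTG at -50. The Creb3l3 window held TGACG at -239 and AGGTCA at -202, while the second Creb3l3 window held no match. Among the other members, Klb held TGACG at -146 and Ppara held it at -222. The second Rxra window held AGGTCA at -48 and its reverse complement at -87, and the first held no match. Sirt1 held CACGTG at -115 and at -43, the last overlapping TGACG at -39. No match was found in the Fgfr4 window. Of 32851 such windows, 0.895% held TGATGCAA, 20.8% TGACG, 7.15% CACGTG, 16.3% AGGTCA, 1.79% TGACGTCA and 0.0396% the direct repeat. The last 2 were in no window of the members. A match is a run of letters and was not tested as a binding site.

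All values are log2 RMA intensities, and a difference of 1 is a doubling. The arrays had medians of 5.19 to 5.29 and arrays of a group correlated at 0.989 to 0.996 across genes. Their number limits the precision of every value, and in whole liver fewer cells of a type and less RNA per cell cannot be told apart. Vnn1, the targeted gene, averaged 3.98 ± 0.30 in fasted KO and 10.81 ± 0.69 in fasted WT livers, and 3.89 ± 0.12 in fed KO and 8.91 ± 1.61 in fed WT livers (SD, n = 4 each). Every knockout array was below every wild type array, although fed WT 4 was low at 6.71. The 7 hepatocyte markers had a mean of 13.09 to 13.25 on each array. Fasted WT 4 stood apart, with a mean of 8.10 over 11 measured pancreatic acinar markers (14 listed), against 3.90 to 4.12 on the other 15 arrays. The exocrine pancreas also makes Fgf21, so the Fgf21 log2 differences over all arrays that rest on this array are given with and without it. The Fgf21 group means, values by array position and correlations are given only with it. Counts of the PPAR alpha and Creb3l3 target lists are given both ways, and those of the other lists only with it. Fed KO 4 had the highest mean over 7 measured acute phase genes, 11.85, and is left out beside fasted WT 4 in those target list counts. The marker counts that follow stand against all genes passing with fasting, 4.53% as rises and 4.89% as falls in KO, and 3.34% and 4.27% in WT livers. Of 7 stellate cell markers 2 fell with fasting in each genotype, and the array means of that list were 7.49 to 7.58 in fasted KO and 7.71 to 7.97 in fed KO, and 7.52 to 7.70 in fasted WT and 7.71 to 8.11 in fed WT livers. Of 7 measured acute phase genes 2 fell in KO (Socs3 and Steap4) and 1 in WT (Steap4), and the median array mean of that list was 7.81 in fasted KO and 9.17 in fed KO, and 8.33 in fasted WT and 8.34 in fed WT livers. Of 7 hepatocyte markers 0 passed in KO and 1 rose in WT (Tat). Of 8 macrophage markers 0 passed in KO and 1 fell in WT, and no adipocyte, endothelial or cholangiocyte marker passed. The calls of Lrat (stellate) in both genotypes and of Adgre1 (macrophage), Tat and Steap4 in WT were lost when single arrays were left out. The part of other cells in the results was not tested.

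Fgf21 was the member that moved most. The fasted KO arrays read 7.0, 7.23, 6.81 and 6.96 and the fasted WT arrays 7.24, 6.74, 6.99 and 6.36. The fed KO arrays read 4.67, 4.90, 4.93 and 4.69 and the fed WT arrays 5.39, 5.31, 5.23 and 5.51. Every fasted array was above every fed array, the fasted genotypes overlapped, and the fed genotypes did not. In group means the order was fasted KO at 7.0 ± 0.17, fasted WT at 6.83 ± 0.38, fed WT at 5.36 ± 0.12 and fed KO at 4.80 ± 0.14 (SD, n = 4 each). The lowest fasted value belonged to fasted WT 4, the array with the pancreatic transcripts. The fed means lay close to the array medians, and the table holds no background call for a probe set, so whether fed Fgf21 was above background was not tested.

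**Figure D1:**
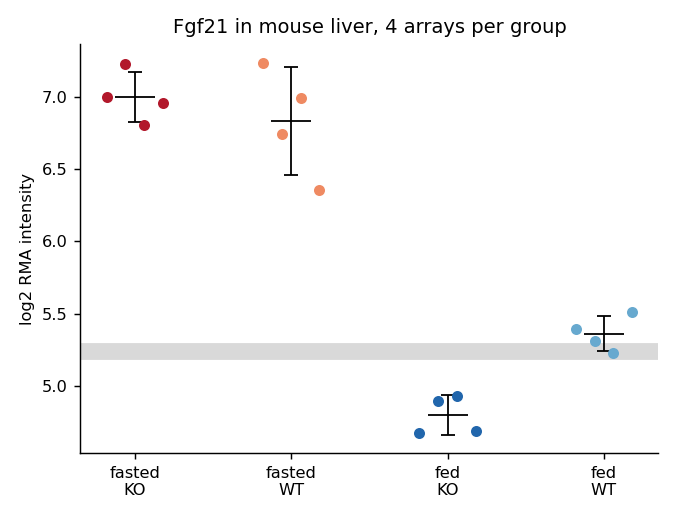
Fgf21 in each array (points), with the group mean and SD (bars, n = 4 per group); the y axis is log2 RMA intensity and the grey band spans the array medians, 5.19 to 5.29. The fasted arrays sit between 6.36 and 7.24, above the fed KO arrays (4.67 to 4.93) and the fed WT arrays (5.23 to 5.51).

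Fasting raised Fgf21 in both genotypes. In knockout livers the rise was 4.61-fold (log2 difference 2.20, SE 0.15, 95% interval 1.90 to 2.51, limma adjusted p = 3.59e-07). The fed KO mean lay under the array medians, and whether it was above background was not tested. In wild type livers the rise was 2.78-fold (log2 difference 1.47, SE 0.15, 95% interval 1.16 to 1.78, limma adjusted p = 2.83e-05). By p it ranked 2 among 18820 genes in knockout and 11 in wild type livers. By size it was the rise of rank 21 and of rank 42. Without fasted WT 4 the wild type log2 rise was 1.63. Array names carry a position number, 5 or 7, with 2 arrays of each group at each. At position 5 the log2 rise was 2.10 in knockout and 1.81 in wild type livers. At position 7, which includes fasted WT 4, the rise was 2.30 and 1.14.

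Between genotypes Fgf21 passed no threshold. In fasted livers the log2 difference between KO and WT was 0.17 (95% interval -0.14 to 0.48, limma adjusted p = 0.968), and 0.0095 without fasted WT 4. It was -0.21 at position 5 and 0.55 at position 7, which includes fasted WT 4, so the sign turned. In fed livers it was -0.56 (95% interval -0.87 to -0.25), with every KO array below every WT array. The unadjusted limma p of the fed difference was 0.00131, rank 25 of 18820, and the adjusted p was 0.776. An exact two-sided permutation test gave p = 0.0286, the smallest that 4 against 4 arrays can give, and 0.114 after adjustment over 28 such tests. Among all genes 3.12% had fed genotypes that did not overlap. The fed difference was -0.51 at position 5 and -0.62 at position 7. The fasting response was larger in KO than in WT by 0.73 on the log2 scale (95% interval 0.29 to 1.17), a difference that did not pass over all genes (unadjusted p = 0.00259, limma adjusted p = 0.948). Without fasted WT 4 this difference was 0.57.

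The receptor genes moved less than the hormone. Fgfr4 read 8.86, 9.03, 9.01 and 8.85 in fasted KO, against 9.31, 9.34, 9.38 and 8.98 in fed KO livers. It read 9.06, 8.94, 9.14 and 8.85 in fasted WT, against 9.35, 9.53, 9.17 and 9.49 in fed WT livers. The fasted WT arrays were all below the fed WT arrays, while in knockout livers fed KO 4 overlapped the fasted arrays. Among all genes 12.4% had fasted and fed WT groups that did not overlap, in either direction. Fgfr4 fell 1.31-fold in wild type livers (log2 difference -0.39, SE 0.10, limma adjusted p = 0.0289). In knockout livers the difference was -0.31 and did not pass (limma adjusted p = 0.0676). The wild type call was lost without any 1 of fasted WT 2 (adjusted p = 0.0729), fasted WT 4 (0.0975), fed WT 1 (0.0510), fed WT 2 (0.0835) and fed WT 4 (0.0856). Without fed KO 4 the knockout difference was -0.40 and passed (limma adjusted p = 0.0168). At position 5 the differences were -0.41 in KO and -0.16 in WT, and at position 7 they were -0.22 and -0.62.

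Klb, the beta-klotho gene, read 9.35, 9.45, 9.43 and 9.48 in fasted KO and 9.45, 9.62, 9.62 and 9.78 in fasted WT livers. It read 9.27, 9.47, 9.61 and 9.27 in fed KO and 9.65, 9.01, 9.43 and 9.82 in fed WT livers. The groups overlapped in each comparison, and the fed WT arrays had the widest spread (SD 0.35). The fasting difference was 0.022 in KO (95% interval -0.26 to 0.31) and 0.14 in WT (95% interval -0.15 to 0.42), with limma adjusted p of 0.952 and 0.614.

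**Figure D2:**
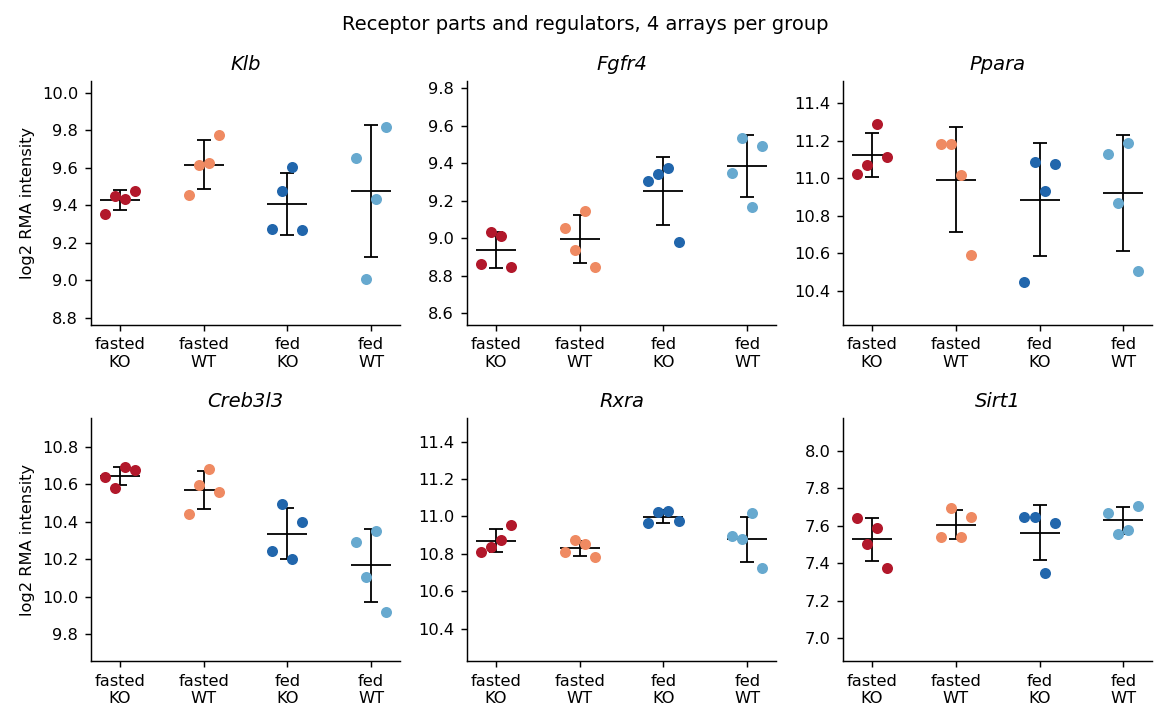
Log2 RMA intensity of the other 6 measured members in each array (points), with group means and SD (bars, n = 4 per group); each panel has its own y range, and levels of different probe sets are not comparable. Within each genotype Creb3l3 is higher in all fasted than in all fed arrays, Fgfr4 is lower in fasted than fed wild type arrays, and Ppara, Klb and Sirt1 overlap between the groups.

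Among the member regulators Ppara, Creb3l3, Rxra and Sirt1, only Creb3l3 passed for fasting within a genotype, in wild type livers. The fasted KO arrays read 10.64, 10.58, 10.69 and 10.67, against 10.25, 10.50, 10.20 and 10.40 in fed KO livers. The fasted WT arrays read 10.44, 10.60, 10.68 and 10.56, against 10.29, 10.11, 10.35 and 9.92 in fed WT livers. In each genotype the fasted arrays were all above the fed arrays. Fasted and fed groups did not overlap, in either direction, for 17% of all genes in KO and 12.4% in WT. Creb3l3 rose 1.32-fold in wild type livers (log2 difference 0.40, SE 0.095, limma adjusted p = 0.0150). In knockout livers the log2 difference was 0.31 and missed the threshold (SE 0.095, limma adjusted p = 0.0509). The wild type call was lost without fed WT 4 (log2 difference 0.32, adjusted p = 0.0510). The knockout difference passed without any 1 of fasted WT 1 (adjusted p = 0.0489), fed WT 3 (0.0431), fed WT 4 (0.0274) and fed KO 2 (0.0335). At position 5 the differences were 0.44 in KO and 0.24 in WT, and at position 7 they were 0.18 and 0.57. The KO minus WT difference was 0.076 in fasted and 0.17 in fed livers, and the fasting responses differed by -0.093 (limma adjusted p above the threshold in each).

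Ppara showed no difference that passed. Its arrays read 11.02, 11.07, 11.29 and 11.12 in fasted KO, 11.18, 11.19, 11.02 and 10.59 in fasted WT, 10.45, 11.09, 10.93 and 11.08 in fed KO, and 11.13, 10.87, 11.19 and 10.51 in fed WT livers. One array was low in each group except fasted KO (fasted WT 4, fed KO 1 and fed WT 4), and all groups overlapped. The fasting difference was 0.24 in KO (95% interval -0.11 to 0.59) and 0.070 in WT livers (95% interval -0.28 to 0.42), with limma adjusted p of 0.441 and 0.863. The WT difference was 0.21 without fasted WT 4 and -0.068 without fed WT 4.

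Rxra read 10.81, 10.84, 10.88 and 10.95 in fasted KO, against 10.97, 11.02, 11.03 and 10.98 in fed KO livers. Its values were 10.81, 10.87, 10.85 and 10.78 in fasted WT, against 10.89, 10.88, 11.02 and 10.72 in fed WT livers. The knockout groups did not overlap, which held for 17% of all genes, and the wild type groups did. The differences were small, at -0.13 in KO (95% interval -0.27 to 0.016, limma adjusted p = 0.291) and -0.048 in WT livers (limma adjusted p = 0.753). The exact permutation p of the knockout difference was 0.0286, and 0.114 after adjustment over the 28 tests.

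Sirt1 read 7.64, 7.50, 7.59 and 7.38 in fasted KO, 7.54, 7.69, 7.54 and 7.65 in fasted WT, 7.64, 7.65, 7.35 and 7.61 in fed KO, and 7.67, 7.56, 7.58 and 7.71 in fed WT livers. The groups overlapped throughout. The fasting difference was -0.035 in KO (95% interval -0.21 to 0.14) and -0.023 in WT livers (95% interval -0.20 to 0.15).

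Over the 7 measured members, fasting gave 1 rise and 0 falls in knockout livers, where 9.42% of all genes passed in either direction, 4.53% as rises and 4.89% as falls. In wild type livers it gave 2 rises (Fgf21 and Creb3l3) and 1 fall (Fgfr4), where 7.61% of all genes passed, 3.34% as rises and 4.27% as falls. The members' median log2 difference was 0.022 in KO and 0.070 in WT, against 0.020 and 0.011 over all genes. Fasted and fed groups did not overlap for 3 members in KO and 3 in WT, against 17% and 12.4% of all genes. With each array centred on its median, 2 members did not overlap in WT, since Fgfr4 then did. Between the fasted genotypes 0 members did not overlap, against 3.15% of all genes. No member passed between genotypes, where 0.0159% of all genes passed in fasted and 0.00531% in fed livers. None passed for the difference of the fasting responses, where 0% of all genes passed and 924 had an unadjusted p under 0.05. Averaged over both genotypes, a contrast added after seeing the data, Fgf21 (1.84, SE 0.10, limma adjusted p = 1.78e-08, and 1.92 without fasted WT 4) and Creb3l3 (0.36, adjusted p = 0.00122) rose and Fgfr4 (-0.35, adjusted p = 0.00262) fell, where 18.3% of all genes passed, 8.4% as rises and 9.88% as falls. Klb, Ppara, Rxra and Sirt1 did not pass, with adjusted p of 0.620, 0.415, 0.237 and 0.789.

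**Figure D3:**
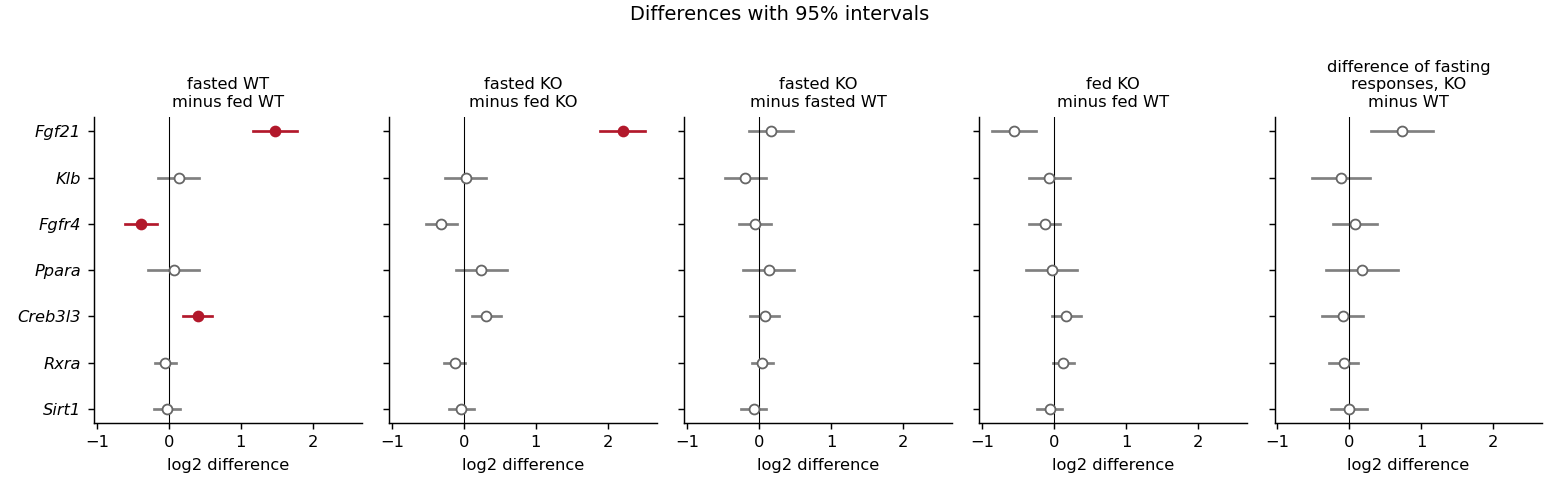
Log2 differences of the 7 measured members with 95% intervals in 5 comparisons; filled red points passed an adjusted p of 0.05 over all genes and open points did not. Fgf21 lies at 2.20 for fasting in KO and 1.47 in WT, and the remaining members lie between -0.39 and 0.40 in those comparisons.

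Within a feeding state, 12 relations between Fgf21 and the other 6 members were computed over 8 arrays each, and none passed after adjustment. By Pearson r over all 8 arrays, the strongest in fasted livers was with Klb (Pearson r = -0.74, exact permutation p = 0.0337, adjusted 0.266; Spearman rho = -0.52, exact p = 0.197). Without the 2 arrays farthest from the median it was -0.45. In fed livers the strongest by Pearson r was with Rxra (r = -0.70, exact permutation p = 0.0444, adjusted 0.266; rho = -0.57, exact p = 0.151), and -0.36 without the 2 farthest arrays. By Spearman rho the strongest was another member in each state, Sirt1 in fasted (-0.62, exact permutation p = 0.115, adjusted 0.337) and Fgfr4 in fed livers (0.67, exact permutation p = 0.0831, adjusted 0.337). Without the 2 farthest arrays it was Rxra in fasted (r = -0.78) and Klb in fed livers (r = 0.76). Within a state the arrays also differ by genotype.

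The genes whose values followed Fgf21 most closely were sought among 9213 genes with a mean above the median gene, predicted genes and olfactory receptors left out. Over the 16 arrays, the highest Pearson r was with the lipase gene Abhd2 (0.972), followed by the lipid droplet protein gene Hsd17b13 (0.970), the peroxisomal beta-oxidation gene Ehhadh (0.961), the lysosomal glucosidase gene Gaa (0.958) and Tor1a (0.956). Abhd2 read 10.84 to 11.53 in the fasted and 9.15 to 10.11 in the fed arrays, and its fed KO arrays were all below its fed WT arrays. The fed genotypes did not overlap for 3.12% of all genes. Abhd2 was picked for its likeness to Fgf21 on these same arrays, so its order is no separate support. The most opposed genes were the translocon gene Sec61b (-0.968), the sterol synthesis gene Mvk (-0.962), the glycogen phosphorylase gene Pygl (-0.960), Nans (-0.959) and the sterol synthesis gene Fdps (-0.957). For Creb3l3 the highest r was with Agpat3 (0.954), the beta-oxidation gene Decr1 (0.951), the fatty acid transporter gene Slc27a2 (0.945), the ketone body gene Acat1 (0.935) and Rab30 (0.933). The most opposed were Tuft1 (-0.954), the feeding-induced lipase inhibitor gene Angptl8 (-0.938), the sterol gene Ebp (-0.931), Vamp5 (-0.923) and Rdh11 (-0.915). These values describe arrays that share the feeding groups, and Fgf21 and Creb3l3 themselves had r = 0.69.

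The pathway was followed in 8 gene lists, which also hold the members already described, so Fgf21, Fgfr4 and Creb3l3 are counted again where called. The list counts stand against 9.42% of all genes passing in KO (4.53% as rises, 4.89% as falls) and 7.61% in WT (3.34% and 4.27%). Among the genes counted, the calls of Foxo1, Xbp1, Sirt7, Apoa5, Fabp2 and Mlxipl in KO and of Hnf4a, Ncoa3, Tbl1x, Sirt7, Mbtps1, Cyp4a14, Eci1, Pex11a and Plin2 in WT livers did not hold, or their size moved, when single arrays were left out. Of the ligand and receptor genes, 11 of 12 were measured. In KO 1 rose (Fgf21) and 1 fell (Fgfr3). In WT livers 2 rose (Fgf21 and Fgf1) and 2 fell (Fgfr3 and Fgfr4). Fgfr3, a receptor for FGF ligands, read 7.03 to 7.62 in fasted KO, against 8.18 to 8.63 in fed KO livers. In fasted WT livers it read 7.04 to 7.60, against 8.19 to 8.32 in fed WT livers. It fell by 1.05 in KO and by 1.01 in WT on the log2 scale (limma adjusted p = 1.22e-04 and 3.62e-04). Fgf1, a growth factor that binds all FGF receptors, rose in WT (0.54, limma adjusted p = 0.0128) and did not pass in KO (0.40, adjusted p = 0.0559).

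Among the partner nuclear receptors, 15 of 16 were measured; 0 rose and 2 fell in KO, and 1 rose and 2 fell in WT livers. The glucocorticoid receptor gene Nr3c1 fell in both, by 0.37 in KO and by 0.41 in WT on the log2 scale (limma adjusted p = 0.00628 and 0.00477). The thyroid hormone receptor gene Thrb fell in KO (-0.40, adjusted p = 0.00825) and had -0.30 in WT (adjusted p = 0.0505). The clock repressor gene Nr1d2 had -0.47 in KO (adjusted p = 0.0629) and fell in WT (-0.68, adjusted p = 0.0104).

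Of 10 measured coactivator genes (11 listed), 0 passed in KO, and 1 rose and 1 fell in WT livers. Ppargc1a encodes PGC-1 alpha, the coactivator of PPAR alpha in fasting. It read 8.64, 9.55, 8.02 and 9.06 in fasted KO, against 8.49, 7.85, 7.85 and 7.73 in fed KO livers. In fasted WT livers it read 9.46, 8.86, 9.84 and 9.79, against 7.97, 8.12, 8.11 and 7.85 in fed WT livers. The wild type groups did not overlap, which held for 12.4% of all genes, and the knockout groups did. The log2 difference was 0.84 in KO (limma adjusted p = 0.0594) and 1.48 in WT (adjusted p = 0.00283), and the responses differed by -0.64, which did not pass (adjusted p = 0.948). Of 6 measured corepressor genes (8 listed), 0 passed in KO and 1 fell in WT, Tbl1x at -0.40 (adjusted p = 0.0234). That call was lost without any 1 of fasted WT 2, fasted WT 4, fed WT 2 and fed WT 4 (adjusted p 0.0574, 0.0859, 0.0517 and 0.0786).

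All 10 sirtuin and NAD supply genes were measured. In KO 1 rose and 1 fell, and in WT livers 0 rose and 1 fell. The fall in each was Sirt7, with -0.45 in KO and -0.53 in WT (limma adjusted p = 0.0338 and 0.0158). As stated above, these Sirt7 calls did not hold, or their size moved, when single arrays were left out. The NAD kinase gene Nadk rose in KO (0.38, limma adjusted p = 0.0118) and had 0.16 in WT (adjusted p = 0.316). Of 13 measured factors known to act on Fgf21 (16 listed), 1 rose and 3 fell in KO, and 2 rose (Creb3l3 and Foxo1) and 2 fell in WT livers. Mlxipl encodes ChREBP, the glucose-sensing factor. It fell by 0.56 in KO and by 1.01 in WT on the log2 scale (limma adjusted p = 0.0283 and 8.16e-04). The knockout call of Mlxipl was lost without any 1 of fasted KO 1, fasted KO 4, fed KO 1, fed KO 2 and fed KO 3 (adjusted p 0.0580, 0.0961, 0.0782, 0.0661 and 0.0704). Foxo1, a factor that insulin keeps inactive, rose in KO (0.40, limma adjusted p = 0.0315) and in WT (0.53, adjusted p = 0.00799). Its knockout call was lost without any 1 of fasted KO 1, fasted KO 2, fasted KO 4, fed KO 3 and fed KO 4 (adjusted p 0.0769, 0.102, 0.0611, 0.101 and 0.0933).

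The PPAR alpha target list held the most genes that rose. Of 30 measured targets (36 listed), 28 rose in KO and 24 rose in WT livers, and 0 fell in either. The list had been seen in earlier results of these data and is no independent evidence. The median log2 difference was 1.08 in KO and 0.76 in WT, against 0.020 and 0.011 over all genes. Without fasted WT 4 and fed KO 4 the counts were 27 and 23. The lipid droplet gene Cidec rose by 4.32 in KO and 2.77 in WT, and the acyl-CoA thioesterase gene Acot1 by 4.17 and 2.79 (log2). Between genotypes 0 of the 30 passed. In fasted livers 30 of the 30 had a positive difference, KO minus WT, with a median of 0.27, against 50.5% of all genes and a median of 0.0014. For the difference of the responses 29 of the 30 were positive, with a median of 0.32, against 52.4% of all genes and a median of 0.0097. Without those 2 arrays the counts were 28 and 25 and the medians 0.24 and 0.18. The targets were read on the same arrays and are not independent of each other, so these counts are descriptions only. Ppara itself differed by 0.13 between fasted KO and fasted WT livers (95% interval -0.22 to 0.49), and by -0.0022 without fasted WT 4.

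Of 10 measured genes known as Creb3l3 targets (11 listed), 6 rose in KO and 5 rose in WT livers, and 0 fell. Without fasted WT 4 and fed KO 4, 5 rose in each. Apoa4, an apolipoprotein gene, read 12.87 to 13.23 in fasted KO, against 11.47 to 11.88 in fed KO livers. It read 12.87 to 13.35 in fasted WT, against 10.98 to 12.07 in fed WT livers. Its log2 rise was 1.48 in KO and 1.55 in WT (limma adjusted p = 4.64e-05 and 8.82e-05). Fgf21 and Cidec belong to this list too. In every one of the 8 lists, 0 genes passed between genotypes or for the difference of the responses.

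**Figure D4:**
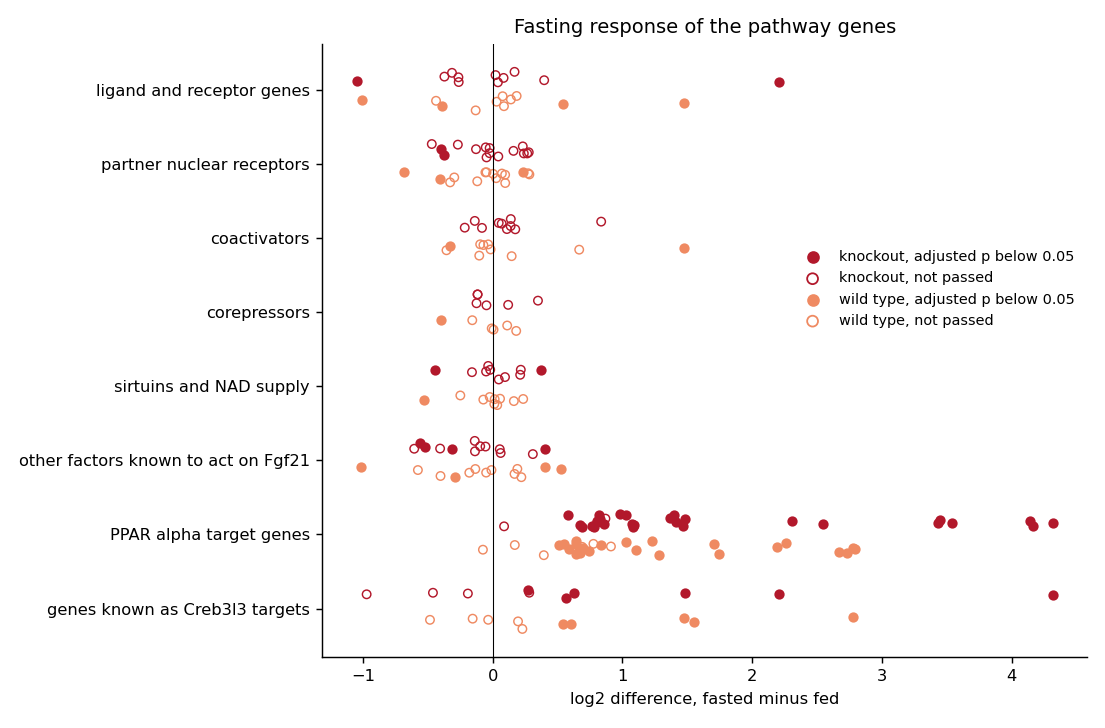
Fasting response (log2 difference, fasted minus fed) of each measured gene of the 8 lists, in knockout (red) and wild type (orange) livers; filled points passed an adjusted p of 0.05 over all genes. Of the 30 PPAR alpha targets, 30 lie to the right of 0 in KO and 29 in WT, with 28 and 24 passing; the regulator lists hold points on both sides of 0, such as Ppargc1a at 1.48 and Mlxipl at -1.01 in WT.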

How the data were processed

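Total RNA from liver was labelled and hybridised to 16 whole-transcript arrays. What the authors deposited is a table of log2 RMA intensities, per the submitters' processing notes, which give no version. No genome build of the probe design was used. Of 35556 probe sets in the deposited table, 21218 had 1 gene symbol, 1881 several and 12457 none in the probe-gene table used. Of those with 1 symbol 21185 matched a RefSeq gene by Entrez ID (GRCm38.p6) and 0 symbols were updated. Each gene was represented by its brightest probe set on average over the arrays, leaving 18820 genes, with no filter on dim genes. Each of the 7 measured members had 1 probe set. No 2 arrays held identical values.

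A linear model of 4 group means was fitted to the 16 arrays by limma 3.58.1 (R 4.3.3), with 12 residual degrees of freedom and 4.66 from the prior, two-sided tests and Benjamini-Hochberg adjustment over all genes, called below 0.05. The procedure was also run on simulated data with planted shifts and independent noise. Those data held no array that stood apart, so they cannot show how calls behave where an array does. Exact permutations and correlations used scipy 1.17.1. Promoter windows are RefSeq's and were searched for exact motif letters.

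The members and lists were chosen with earlier results of these data known. The rule for named genes took the members, up to 3 called rises and 2 called falls of each list per fasting comparison, the 5 genes most like and most opposed to Fgf21 and to Creb3l3, and Vnn1. The text prints part of these, chosen after their values were seen and leaning to genes that kept their call without single arrays; Fgf1, Nr1d2, Thrb, Nadk and Ppargc1a are also given where they did not pass.

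Settings varied were the scaling of the arrays (median centring, quantile, cyclic loess), a filter on dim genes (30th or 50th percentile), the rule for a gene's probe set, the variance prior (trended, robust or none), weights per array, the samples in the fit, a replicate or position block, the threshold (0.01), and arrays left out. The contrast averaged over genotypes, the list counts without fasted WT 4 and fed KO 4 or with centring, and the calls of named list genes without single arrays were added after seeing the data. Replicate numbers did not pair the samples.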

Additional observations from a re-analysis of the deposited data

Results flagged for a closer look

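Of 28 groups of 4 arrays tested (7 genes in 4 groups), 1 had an array apart from the others, where chance flags about 1 in 20. Sirt1 in fed KO 3 was 7.35, against 7.61 to 7.65 on the other fed KO arrays. Its gap to the nearest array was 0.896 of the group's range, above the 95% critical value of Dixon's test.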

How the results depend on the processing

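Fgf21 kept its call for fasting in all 34 settings in each genotype (log2 2.13 to 2.27 in KO and 1.34 to 1.63 in WT; adjusted p 3.63e-08 to 9.77e-05 and 6.49e-06 to 0.00183). Its fed genotype difference (-0.61 to -0.51) and the difference of its responses (0.54 to 0.87) passed in none. The knockout count of 1 called member became 2 with quantile normalisation, the 30th percentile filter, the trended prior, only the groups compared, the arrays whose name ends in 2 left out (1 array in each of 3 groups), and fasted WT 4 and fed KO 4 left out. It became 3 with the 50th percentile filter and with array weights, and ranged from 1 to 2 when each array was left out (2 without any 1 of fasted WT 1, fed WT 3, fed WT 4, fed KO 2 and fed KO 4). The wild type count of 3 became 1 with only the groups compared, without the arrays whose name ends in 2 and at a threshold of 0.01, and ranged from 1 (without fed WT 4) to 3 when each array was left out. Over the settings Creb3l3 was called in 10 of 34 in KO (adjusted p 0.0210 to 0.150) and 31 of 34 in WT (0.00877 to 0.0657), and Fgfr4 in 5 of 34 (0.0124 to 0.182) and 24 of 34 (0.0138 to 0.0975). The cause of these changes was not tested. With the replicate block no call of a member changed, and Fgf21 had adjusted p = 3.00e-06 in KO and 1.58e-04 in WT. Same-numbered arrays correlated at -0.22 to 0.21 in their deviations, so the numbers were not taken as pairs.

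Signs turned in 34 instances, all of differences that passed in no setting. With centring these were Klb fasting in KO (-0.0038) and Ppara in fed KO against WT (0.0066), and with quantile normalisation Sirt1 fasting in WT (0.0088). Without the arrays whose name ends in 2 they were Klb fasting in WT (-0.017), Fgfr4 in fed KO against WT (0.0058), the response differences of Klb (0.018) and Fgfr4 (-0.040), and Klb averaged over genotypes (-0.0080). Without fasted WT 4 and fed KO 4 they were Klb fasting in KO (-0.024), Ppara in fasted KO against WT (-0.0022), and the response differences of Fgfr4 (-0.066) and Sirt1 (0.019). When each array was left out, the fasting differences in KO ranged from -0.024 to 0.089 for Klb and from -0.11 to 0.015 for Sirt1. In WT they ranged from -0.017 to 0.25 for Klb, from -0.068 to 0.21 for Ppara and from -0.052 to 0.0029 for Sirt1. The fasted genotype difference of Ppara ranged from -0.0022 to 0.20. The fed genotype differences ranged from -0.23 to 0.042 for Klb, from -0.18 to 0.11 for Ppara and from -0.093 to 0.0076 for Sirt1. The response differences ranged from -0.23 to 0.039 for Klb, from -0.016 to 0.15 for Fgfr4 and from -0.084 to 0.038 for Sirt1.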
